A study of Mus musculus with 2 samples.

Results

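The mouse genes whose symbols follow the pattern of the cytochrome P450 (Cyp) family, a family number, a letter and a gene number, were followed across single thymic epithelial cells (TECs). Of 94 such symbols listed, 79 had at least 10 counted molecules over the kept cells of both libraries and were described. They were thus chosen by their summed measured level, and that level is given only as a description. Cyp2j8 and Cyp7a1, with 12 and 13 molecules, lay just inside the limit, and Cyp2d11 and Cyp2b9, with 9 and 8, just outside. Of the 15 symbols left out, 13 had 1 to 9 molecules and Cyp2a22 and Cyp4a32 had 0.

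Cytochrome P450 enzymes are haem proteins that add oxygen to their substrates, with electrons passed on by P450 oxidoreductase (Por) in the endoplasmic reticulum or by ferredoxin (Fdx1) in mitochondria. Many are known from a single tissue: liver for drug and bile acid metabolism, adrenal gland and gonad for steroid synthesis, olfactory mucosa, airway and skin. Medullary TECs (mTECs) are known to express genes of other tissues at low frequency, and developing T cells that react to them are deleted or turned into regulatory T cells. Part of this ectopic expression depends on the protein Aire, and patients who lack AIRE make autoantibodies against several P450 enzymes of the adrenal gland and liver. The orthologues of these autoantigens are Cyp11a1, Cyp17a1, Cyp21a1, Cyp1a2 and Cyp2a5.

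TECs (EpCAM+ CD45- TER119-) of female C57BL/6 mice were measured in 2 droplet libraries, each a pool of 3 mice, 1 from unirradiated mice and 1 from mice analysed 15 days after 5.5 Gy of γ-rays given at 7 weeks of age. The deposit's characteristics give an age of 9 weeks and its protocol 4 weeks. The deposit names the library of 4937 barcodes irradiated and that of 7167 barcodes control, whereas the names of the deposited matrices and the cell numbers in the study's text give the opposite. The libraries are therefore called by the cells kept from them, the 3233-cell library and the 5070-cell library, and every library ratio is given as 5070-cell over 3233-cell. By the matrix names this ratio is irradiated over control, and by the deposit's labels it is control over irradiated. With 1 library per condition there was no replicate, and no difference was tested.

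The values were unnormalized counts of unique molecular identifiers (UMIs), each marking 1 captured RNA molecule. A level is UMIs of a gene per 10000 UMIs summed over the cells named. Since each molecule was counted once from its end, levels of different genes could be set side by side without a length correction. Brackets hold exact Poisson 95% intervals for levels and exact Clopper-Pearson 95% intervals for shares, and ranges of log2 ratios combine opposite ends of the levels' intervals. These cover counting error only, not differences between mice. They treat the UMIs of a cell as independent, and so do not cover the spread between cells where few cells hold most UMIs of a gene. The kept cells had medians of 13412 and 13003.5 UMIs, from 3810 to 58293, and 5 barcodes occurred among the kept cells of both libraries.

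The 79 Cyp genes held 49336 UMIs, or 0.0388% of all UMIs. Cyp2a5, Cyp26a1 and Cyp2f2 held 35.1% of them, and the 10 genes with most UMIs held 67.8%. Genes were grouped by symbol under a broad known role. The 41 genes of families 1 to 3 grouped under foreign compounds held 46.0%. Some of the 41 have other known roles, such as Cyp2c29, an epoxygenase of the liver. The 21 genes of fatty acid and eicosanoid metabolism held 25.6%, and 5 genes of vitamin D and retinoic acid metabolism 13.5%. Another 6 genes of bile acid and cholesterol metabolism held 5.77%, 5 of steroid hormone synthesis 4.41%, and Cyp20a1, whose role is not firmly known, 4.76%. Both libraries contained all 79.

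Promoter sequences are shown for 6 members that stand for the range from broad to concentrated expression described below. They are from RefSeq (build GRCm38.p6), 250 bases before to 50 bases after a transcription start, 5′ to 3′ on the gene's own strand. Capitals mark CG dinucleotides, TATAAA on either strand, and the direct repeat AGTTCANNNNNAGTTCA on either strand, which is the arrangement of a retinoic acid response element. The first pair, Cyp20a1 (chr1:60343050-60343349, + strand) and Cyp4v3 (chr8:45333114-45333413, - strand), were found in every cluster of at least 50 cells.
Cyp20a1: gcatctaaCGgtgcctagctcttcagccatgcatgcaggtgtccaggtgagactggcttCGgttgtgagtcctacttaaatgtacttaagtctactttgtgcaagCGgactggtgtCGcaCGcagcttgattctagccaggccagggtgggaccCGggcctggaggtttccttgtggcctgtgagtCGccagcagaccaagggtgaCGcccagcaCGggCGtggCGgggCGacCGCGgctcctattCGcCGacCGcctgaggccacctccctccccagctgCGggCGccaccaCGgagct
Cyp4v3: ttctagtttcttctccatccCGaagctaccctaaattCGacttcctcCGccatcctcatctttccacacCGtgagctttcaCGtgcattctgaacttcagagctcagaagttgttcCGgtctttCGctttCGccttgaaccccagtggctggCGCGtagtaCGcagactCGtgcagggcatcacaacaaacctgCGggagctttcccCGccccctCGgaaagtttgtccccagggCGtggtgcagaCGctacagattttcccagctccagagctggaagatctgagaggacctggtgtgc
The next, Cyp26a1 (chr19:37697558-37697857, + strand), was found in many Aire-rich cells. Of 61 members with a promoter in the table, it alone held the direct repeat in exactly the letters above. Its repeat began 32 bases before the start and reads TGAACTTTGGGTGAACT. Repeats with other letters were not searched for, so other members may hold such an element in another form.
Cyp26a1: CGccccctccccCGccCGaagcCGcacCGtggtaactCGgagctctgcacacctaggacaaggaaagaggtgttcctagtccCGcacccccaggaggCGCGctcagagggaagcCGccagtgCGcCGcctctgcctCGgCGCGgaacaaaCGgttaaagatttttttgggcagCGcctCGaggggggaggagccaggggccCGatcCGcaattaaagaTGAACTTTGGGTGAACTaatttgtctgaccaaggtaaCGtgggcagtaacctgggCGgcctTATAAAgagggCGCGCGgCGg
The last 3, Cyp2a5 (chr7:26835089-26835388, + strand), Cyp1a2 (chr9:57683606-57683905, - strand) and Cyp4f14 (chr17:32917293-32917592, - strand), had most of their UMIs in few cells. Cyp2a5 was nonetheless found in 799 cells and, like the first pair, in every cluster of at least 50 cells.
Cyp2a5: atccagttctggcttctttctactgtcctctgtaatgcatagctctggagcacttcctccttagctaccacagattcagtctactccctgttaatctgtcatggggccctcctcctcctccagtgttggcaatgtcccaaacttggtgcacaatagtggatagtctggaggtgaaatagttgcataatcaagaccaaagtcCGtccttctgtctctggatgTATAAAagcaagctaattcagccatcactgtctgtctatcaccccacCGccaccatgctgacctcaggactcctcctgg
Cyp1a2: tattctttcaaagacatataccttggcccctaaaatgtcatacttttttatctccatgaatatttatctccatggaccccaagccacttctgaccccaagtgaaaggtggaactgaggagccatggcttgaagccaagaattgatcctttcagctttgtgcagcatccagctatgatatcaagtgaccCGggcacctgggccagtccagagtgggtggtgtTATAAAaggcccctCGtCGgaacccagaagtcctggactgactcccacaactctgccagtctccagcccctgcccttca
Cyp4f14: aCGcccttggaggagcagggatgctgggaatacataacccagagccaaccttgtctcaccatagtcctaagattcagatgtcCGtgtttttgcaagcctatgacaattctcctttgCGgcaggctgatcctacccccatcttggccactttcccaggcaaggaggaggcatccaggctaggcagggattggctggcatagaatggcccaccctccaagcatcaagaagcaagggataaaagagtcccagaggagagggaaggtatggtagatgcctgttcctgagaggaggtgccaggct
Of the 6 genes picked here, the first pair had 20 and 17 CG dinucleotides in these 300 bases and Cyp26a1 26, against 2, 3 and 3 in the last 3. Other members went against this contrast. Cyp4f16, found in 2246 cells, had 2 and Cyp2j6, found in 1278 cells, had 4, whereas Cyp46a1, found in 49 cells, had 31. TATAAA stood 29 bases before the start in Cyp2a5 and in Cyp1a2. In Cyp26a1 the same letters lay after the start.

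Among the 61 matched promoters the median was 3 CG dinucleotides, against 7 over the promoters of 27025 genes. The 52 whose genes had at least 50% of their UMIs in 1% of the cells had a median of 2, and the 9 others 10. This split also follows abundance. Since 1% is 83 cells, any gene under 100 UMIs lies on the first side whatever its spread. Cyp2r1, with 116 UMIs in 112 cells, lay there too. No split matched for abundance was made. TATAAA on either strand was present in 24 of the 61 promoters, or 39.3%, and in 14.2% of all promoters. The direct repeat, searched for in its exact letters only, was found in 7 promoters of 27025, or 0.0259%. The letters GCGTG, the core bound by the aryl hydrocarbon receptor, were present on either strand in 14 of 61, against 32.5% of all promoters. For 57 of the 61 the start lay within 1000 bases of the annotated gene start. The exceptions were Cyp11a1, Cyp1a1, Cyp2c29 and Cyp2d9, for which the sequence belongs to another start.

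Cells were clustered with every Cyp gene left out, so that their grouping did not use the members. C0 and C6 were Ccl21a+ mTEC-like, C6 with stress genes such as Atf3 among its leading genes. C3 was Aire+ mTEC-like, C7 was TA-mTEC-like (transit-amplifying, dividing cells), C8 cTEC-like (cortical) and C9 tuft-like. The remaining clusters are called by number. The name does not part C3 from C2, since 5 of the 8 Aire+ mTEC markers were over 2-fold above the other cells in each. Their summed levels were 137 in C2 and 118 in C3, and the Aire level of C3 was 13.2. C1 was led by genes such as Muc13, Gpa33 and Lypd8. All 7 enterocyte markers and 5 of 6 microfold markers were over 2-fold above the other cells there. C2 was led by S100a9, Rarres1, Neb, Pcp4 and Pla2g1b, with an Aire level of 9.25. Bpifa1, Calm4, Spink5 and Lypd3 led C10, with all 8 keratinocyte markers over 2-fold above the other cells. C4 was led by Prss23, C5 by replication genes, and C11 had all 10 thymocyte markers and all 9 cTEC markers over 2-fold above the other cells.

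The summed Cyp level was highest in C10, at 17.3 [16.8-17.8] in 187 cells. C1 followed at 8.44 [8.29-8.59] in 937 cells and C2 at 6.43 [6.30-6.55] in 912 cells. The Aire+ mTEC-like cells had 3.99 [3.89-4.08] and the tuft-like cells 3.77 [3.58-3.97], whose intervals overlapped. From C0 at 2.29 down to C5 at 1.79, the other clusters of at least 50 cells lay within a narrow range, the cTEC-like cells at 2.16 among them. In C10, Cyp2a5, Cyp2f2 and Cyp2b19 held 74.1% of the Cyp UMIs, and in C1, Cyp2a5, Cyp4f16 and Cyp26a1 held 60.5%. In C2 the first 3 genes, Cyp1a2, Cyp26a1 and Cyp11a1, held 30.7%.

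All 79 genes were detected in C2, against 68 in C1, 64 in Aire+ mTEC-like cells, 47 in C10 and 31 in cTEC-like cells. These counts were not matched for cells or depth, with 912 cells in C2 and 187 in C10, and have no share over all genes beside them. Some members reached 10 UMIs only through C2, such as Cyp4a14 and Cyp3a59 with 100% of their UMIs there, so detection in C2 was partly fixed by their choice. C2 held 12.0% of all UMIs. Among the 12 clusters of at least 50 cells, to which the highest level of a gene always refers here, it was the highest for 43 genes, or 54.4%, against 26.3% of all genes with at least 10 UMIs. This share moved with abundance. Of the 37 members under 100 UMIs, 29 were highest in C2, and so were 54.4% of the 5695 genes of 10 to 99 UMIs. Of the 42 members with at least 100 UMIs, 14 were highest in C2, against 16.9% of genes in that range. C10 was highest for 15 members, or 19.0%, against 9.88% of all genes, C1 for 9, or 11.4% against 7.03%, and the tuft-like cells for 5, or 6.33% against 13.4%, and C4, C3, C6, C7, C8 and C11 for the remaining 7.

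**Figure D1:**
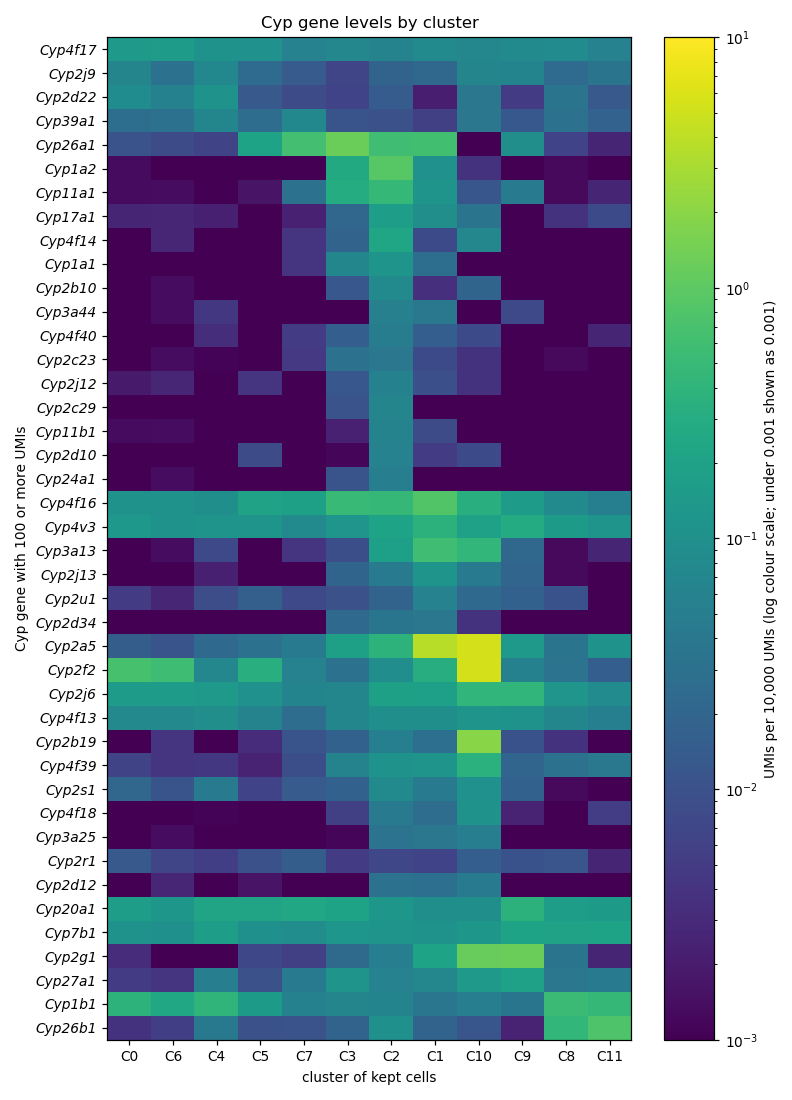
Level of each of the 42 Cyp genes with at least 100 UMIs (rows) in the 12 clusters of at least 50 cells (columns), in UMIs per 10000 UMIs on a log colour scale, ordered by the cluster of highest level. A block of sparse genes is brightest in C2 and dark in most other columns, Cyp2a5 and Cyp2f2 are brightest in C10, and Cyp20a1 and Cyp7b1 are of like colour throughout.

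In the group under foreign compounds, Cyp2a5 (ENSMUSG00000005547, chr7:26835305-26843548, + strand) had most UMIs. It is known from olfactory mucosa and liver, where it oxidizes nicotine and coumarin. Its level was 5.47 [5.19-5.76] in C10 and 3.67 [3.57-3.77] in C1, where 66.0% of its 7755 UMIs lay, and 0.389 [0.359-0.422] in C2. These 3 levels were apart beyond their counting intervals, and in cTEC-like cells the level was 0.0341. After thinning each cell to 4000 UMIs, 32.6% of C10 cells and 24.9% of C1 cells had a Cyp2a5 UMI, against 0.6% of cTEC-like cells. Median depths were 12886 UMIs in C10, 13354 in C1 and 14327 in cTEC-like cells.

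Cyp2f2, the enzyme that activates naphthalene in club cells of the airway, had almost the same level in C10, 5.46 [5.18-5.75], but was low in C1 at 0.312. In Ccl21a+ mTEC-like cells it had 0.691 [0.650-0.734] in C0 and 0.578 [0.524-0.635] in C6, where Cyp2a5 had 0.0150 and 0.0108. Thinned shares of cells were 33.7% in C10, 13.9% in C0 and 0.6% in cTEC-like cells. Cyp2b19, known from differentiating keratinocytes, had 72.4% of its 680 UMIs in C10, in 46 cells, at 1.92 [1.75-2.10]. Its next level was 0.0542 in C2.

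Cyp2g1, known from olfactory mucosa, had 1.25 [1.15-1.37] in tuft-like cells and 1.17 [1.04-1.31] in C10, whose intervals overlapped. It was found in 146 of 297 tuft-like cells, and after thinning in 29.6% of them, against 0.4% of cTEC-like cells. Cyp3a13, an enzyme of the intestine and liver, was highest in C1 at 0.597 [0.557-0.639], followed by C10 at 0.449 [0.370-0.538]. Cyp1b1, which acts on oestrogens and polycyclic hydrocarbons, ran the other way, with 0.528 [0.478-0.581] in cTEC-like cells, 0.456 in C11, 0.416 in C4 and 0.386 in C0. Cyp2d22 was highest in C4 at 0.110, and had 0.0879 in C0 and 0.0341 in cTEC-like cells.

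Cyp1a2 (chr9:57676937-57683703, - strand), a liver enzyme for caffeine and an autoantigen of AIRE-deficient patients, was held by few cells. Its 2015 UMIs came from 101 cells, at 19.95 UMIs per positive cell. Of these cells 67 lay in C2, where its level was 0.910 [0.863-0.959], 24 in Aire+ mTEC-like cells at 0.270 [0.246-0.295] and 5 in C1. Thinned, 5.37% of C2 cells and 0 of 500 cTEC-like cells had a UMI. A count of 0 is given with the limit of 3 counts, here 0.6%. Its neighbour Cyp1a1, which is induced through the aryl hydrocarbon receptor, had 345 UMIs in 39 cells, and was also highest in C2 at 0.116.

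The genes of retinoic acid breakdown parted by cell type. Cyp26a1 (chr19:37697798-37701536, + strand) had 1.27 [1.22-1.32] in Aire+ mTEC-like cells, 0.642 [0.605-0.681] in TA-mTEC-like cells, 0.617 [0.577-0.660] in C1 and 0.598 [0.559-0.638] in C2, of which the last 3 overlapped. In cTEC-like cells it had 0.00631. Cyp26b1 was highest in C11, 0.792 [0.705-0.887], and in cTEC-like cells, 0.440 [0.395-0.489], and had 0.103 in C2. After thinning, 22.2% of Aire+ mTEC-like cells and 0 of 500 cTEC-like cells had Cyp26a1, which allows a share of up to 0.6%, and 11% of cTEC-like cells had Cyp26b1. The vitamin D genes were sparse, with 116 UMIs of Cyp2r1, 100 of Cyp24a1 and 76 of Cyp27b1.

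Of the steroid hormone genes, Cyp11a1 (chr9:58006411-58027023, + strand), which cleaves the side chain of cholesterol in the first step of steroid synthesis, had 1479 UMIs in 217 cells. Its level was 0.464 [0.430-0.499] in C2, 0.303 [0.278-0.330] in Aire+ mTEC-like cells, 0.116 [0.0991-0.136] in C1 and 0.00126 in cTEC-like cells. Cyp17a1, the 17α-hydroxylase, had 455 UMIs in 129 cells, with 0.167 [0.147-0.188] in C2 and 0.0940 in C1 but 0.0208 in Aire+ mTEC-like cells. Cyp11b1, of cortisol and corticosterone synthesis, had 116 UMIs in 28 cells, and 3 cells held at least 50% of them. Cyp19a1, the aromatase, had 91 UMIs in 41 cells, and Cyp21a1, the 21-hydroxylase, 36 UMIs in 21 cells.

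The fatty acid and bile acid genes included members found in many cells. Cyp4f16 was found in 2246 cells, with 0.817 [0.771-0.866] in C1, 0.521 in Aire+ mTEC-like cells, 0.455 in C2 and 0.0820 in cTEC-like cells. Cyp4v3, a fatty acid hydroxylase, was found in 1537 cells, with 0.378 in C1 and 0.154 in cTEC-like cells. Cyp2j6, an arachidonic acid epoxygenase, had 0.429 in C10 and 0.423 in tuft-like cells, and Cyp4f39, which makes the ω-hydroxylated fatty acids of the skin barrier, 0.363 in C10. Among the clusters of at least 50 cells, Cyp4f17 was highest in C6 at 0.159 and Cyp4f13 in C10 at 0.117.

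Cyp7b1, an oxysterol hydroxylase, was found in 1285 cells at like levels in most clusters, such as 0.209 in tuft-like and 0.201 in cTEC-like cells. It reached 1.12 [0.811-1.5] in C12, 43 cells led by genes such as Chgb and Scg2. Cyp27a1, the sterol 27-hydroxylase, had 0.194 in tuft-like cells, and Cyp39a1, an oxysterol hydroxylase, 0.0744 in TA-mTEC-like cells. In contrast Cyp7a1, the rate-limiting enzyme of bile acid synthesis, had 13 UMIs in 3 cells. Cyp20a1 was found in 1831 cells with at most 8 UMIs in a cell, and had 0.375 in tuft-like cells and 0.169 in cTEC-like cells. Cyp20a1, Cyp4v3 and Cyp7b1 were thus not sparse, and were also found in the cTEC-like and Ccl21a+ mTEC-like cells, as were others such as Cyp2j6 and Cyp4f17. Whether the sparse genes serve as ectopic antigens was not tested, since only RNA was measured.

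Most members were concentrated in single cells. At least 50% of the UMIs were held by 10 cells or fewer for 46 of the 79 genes, or 58.2%, against 20.6% of all 22681 genes with at least 10 UMIs. More than 10 UMIs in 1 cell were found for 44 members, or 55.7%, against 44.6% of all genes. Neither comparison was matched for abundance: 37 of the 79 members had under 100 UMIs, against 5695 of the 22681 genes. Cyp2f2 reached 214 UMIs in a single cell, Cyp2a5 191 and Cyp1a2 111. For 37 members under 100 UMIs, the median share of UMIs held by the 83 richest cells (1%) was 100%, as it was over all genes of that range. For 28 members with at least 100 and under 1000 UMIs, this median was 95.9%, against 56.6% over all 6528 genes of that range. For 14 members of at least 1000 UMIs it was 32.3%, against 11.9%. The UMIs per positive cell had medians of 2.57, 2.22 and 2.65 in the ranges from 10, 100 and 1000 UMIs, against 1.31, 1.33 and 1.45 over all genes. Cells with a UMI, over those expected if UMIs fell in proportion to depth, had medians of 0.387, 0.451 and 0.524. Over all genes of these ranges they were 0.761, 0.768 and 0.914.

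**Figure D2:**
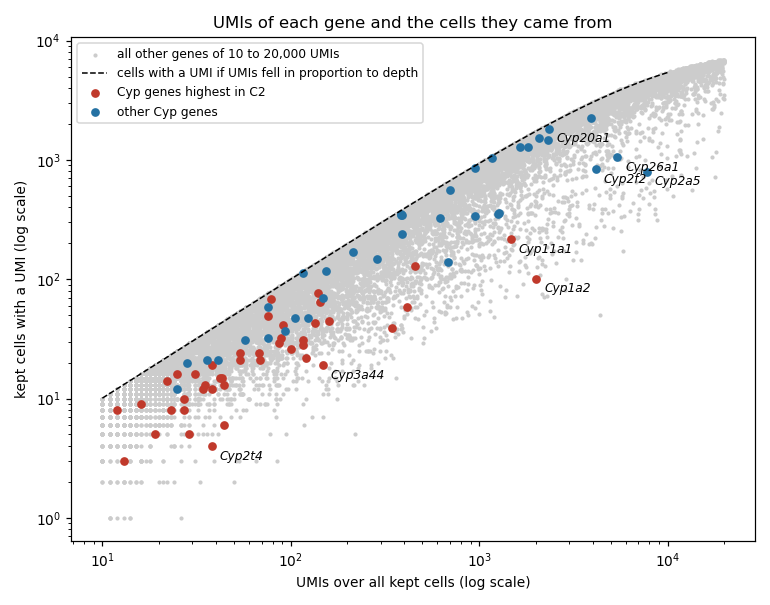
Kept cells with a UMI against UMIs over all kept cells, both on log scales, for the 79 Cyp genes (red, highest in C2; blue, others) and all other genes of this range (grey); the dashed line gives the cells expected if UMIs fell in proportion to depth. Cyp1a2, with 2015 UMIs in 101 cells, lies far below the line, and Cyp20a1, with 2350 UMIs in 1831 cells, lies near it.

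At the sparse end, Cyp2t4 had 38 UMIs in 4 cells, of which 1 held 32, and Cyp4a14 had 44 UMIs in 6 cells, all in C2. Cyp3a44, with 148 UMIs in 19 cells, had 50 in 1 cell. Among C2 cells, 469 or 51.4% had at least 1 of the 43 genes highest there. Each of these genes was found in 0.219% to 9.76% of the C2 cells, with a median of 1.43%. Counting all members, 54 C2 cells had none, 242 had 5 or more different ones, and the most in a cell was 13.

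To set the Cyp genes against Aire, cells thinned to 4000 UMIs were divided by their Aire UMIs into 5388 cells with 0, 761 with 1, 769 with 2 to 3 and 1380 with 4 or more (5 shallower cells were left out). The summed Cyp level was 3.68 [3.64-3.72], 3.88 [3.78-3.99], 3.71 [3.61-3.80] and 4.53 [4.45-4.61] in that order. It was thus highest in Aire-high cells, with a log2 ratio of 0.30 to Aire-zero cells, which was 0.034 in the 3233-cell and 0.52 in the 5070-cell library alone. Without Cyp2a5, Cyp26a1 and Cyp2f2 the levels were 2.30, 2.44, 2.47 and 3.17. The classes differed in depth, with medians from 11356.5 to 19293 UMIs, and in make-up: Aire+ mTEC-like cells formed 0.835% of the Aire-zero and 42.1% of the Aire-high cells, and C2 2.38% and 29.8%. Their part in these values was not tested.

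Of the 42 Cyp genes with at least 100 UMIs, 19 were over 2-fold higher in Aire-high cells, where 21.7% of all 16986 genes of that abundance were, and 10 were over 2-fold lower, where 16.6% of all genes were. Cyp39a1 lay at the limit itself. The other 13 were within 2-fold. Counted from 50 UMIs, 30 of 55 members were over 2-fold higher, against 25% of all 18788 such genes. The median log2 ratio of the 42 genes was 0.23, against -0.11 over all genes.

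Cyp11a1 had 0.0138, 0.0744, 0.142 and 0.401 over the 4 classes, with a log2 ratio of 4.85 (4.49 to 5.24). Cyp26a1 had 0.0988, 0.369, 0.838 and 1.10, with 3.47 (3.31 to 3.63), and Cyp1a2 0.0387, 0.169, 0.255 and 0.421, with 3.44 (3.19 to 3.71). Each of these 3 genes was higher in every class than in the one before it. Cyp3a44 had a ratio of 4.33 (3.27 to 5.63). Cyp11b1 had 3.84 (1.73 to 6.97), but its highest level, 0.0473, lay in cells with 1 Aire UMI and not in Aire-high cells with 0.00683. Of the broadly found genes, Cyp4f16 had 1.16 (1.01 to 1.31). In the 3233-cell and the 5070-cell library taken alone, Cyp11a1 had 5.45 and 4.60, Cyp26a1 3.78 and 3.31, and Cyp1a2 3.19 and 3.63, so that each kept its direction in both.

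On the other side Cyp2f2 had 0.513 in Aire-zero and 0.0288 in Aire-high cells, with a log2 ratio of -4.14 (-4.54 to -3.78). Cyp2d22 had -3.01, Cyp2j9, an epoxygenase, -2.40, Cyp1b1 -2.30 and Cyp2g1 -2.13. Cyp2a5, although an autoantigen orthologue, also lay on this side at -1.72 (-1.88 to -1.57), with 0.764, 0.866, 0.328 and 0.232 over the classes. The other autoantigen orthologues were higher in Aire-high cells, Cyp17a1 least at 1.07 (0.60 to 1.54). Cyp21a1, under 100 UMIs, had 2.11 (0.25 to 4.13). Ratios near 0 were those of Cyp20a1, 0.09, and Cyp7b1, -0.07.

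**Figure D3:**
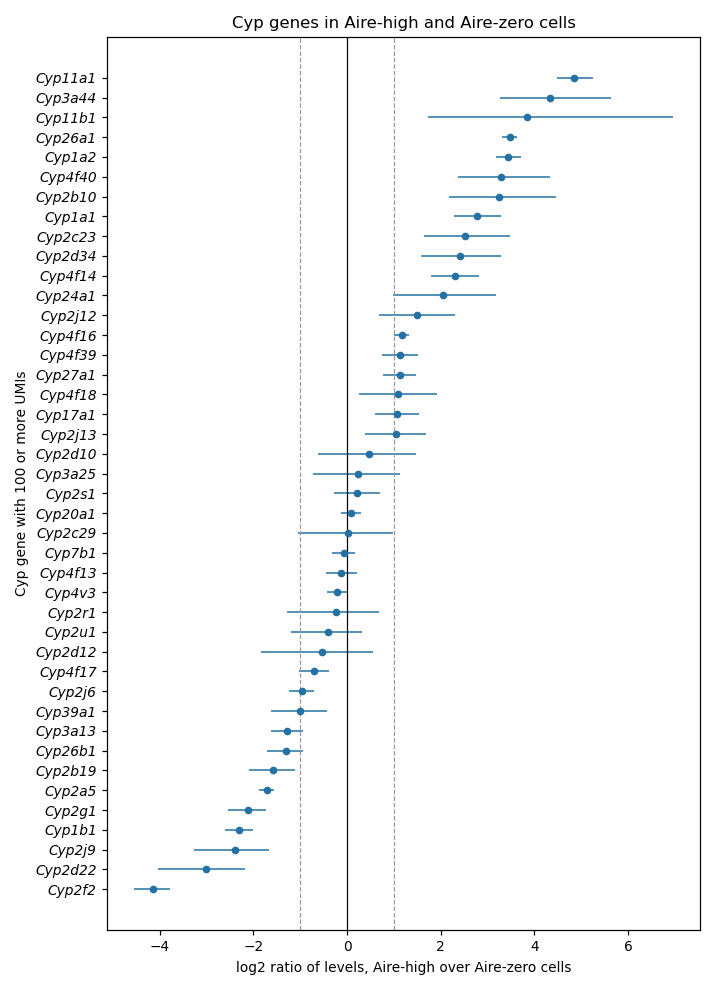
Log2 ratio of levels in Aire-high over Aire-zero cells (x axis) for each of the 42 Cyp genes with at least 100 UMIs (rows), with bars for the range from opposite ends of the exact Poisson 95% intervals and dashed lines at 2-fold. The points run from Cyp2f2 at -4.14 to Cyp11a1 at 4.85, with 19 genes right of the upper dashed line.

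Within a cluster the relation differed from that over all cells. In C2, 411 Aire-high cells had a summed Cyp level of 6.44 and 128 Aire-zero cells 7.95, a log2 ratio of -0.31 (-0.42 to -0.19). There 8 of the 42 genes were over 2-fold higher (9.80% of all genes) and 15 over 2-fold lower (11.5% of all genes). In C1, 202 Aire-high cells had 5.57 and 427 Aire-zero cells 11.5, a ratio of -1.04 (-1.15 to -0.94), with 9 genes higher (background 14.5%) and 15 lower (13.1%). In TA-mTEC-like cells the direction was that of all cells, at 0.76 (0.57 to 0.95), with 14 genes higher (16.3%) and 4 lower (11.5%).

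Between the libraries, the summed Cyp level was 4.36 [4.30-4.42] in the 3233-cell and 3.55 [3.51-3.60] in the 5070-cell library, a log2 ratio of -0.29 (-0.33 to -0.26). Without Cyp2a5, Cyp26a1 and Cyp2f2 the ratio was -0.13. With each cluster weighted alike in both libraries, by its mean share of their UMIs, the summed ratio was -0.10. Large clusters thus counted more than small ones. C10 made up 2.88% of the 3233-cell and 1.85% of the 5070-cell library, and C1 13.4% and 9.94%. Within C1 the summed level was 8.42 against 8.46, and within C2 6.45 against 6.41, differences inside the counting intervals. Lower values in the 5070-cell library were seen within C10, 20.3 against 14.1, within C0, 2.78 against 1.98, and within C6, 2.15 against 1.66. C10 had 93 and 94 cells, under the 100 cells in each library planned for comparisons within a cluster. Without the same 3 genes the ratios were 0.23 in C10, -0.06 in C0 and 0.20 in C6.

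Cyp2f2 and Cyp2a5 held most of this difference, with levels of 0.533 against 0.185 and of 0.808 against 0.475. Cyp2f2 had 2747 UMIs in 464 cells of the 3233-cell library and 1398 UMIs in 373 cells of the 5070-cell library, a log2 ratio of -1.52 (-1.66 to -1.39). Found in 14.4% [13.2-15.6] and 7.36% [6.65-8.11] of cells, it remained at -1.34 with clusters weighted alike in both libraries. Its level was lower within C10 (7.65 against 3.08), C0 (1.14 against 0.415), C6 (0.942 against 0.299) and C1 (0.557 against 0.0699). Cyp2a5 had 4170 and 3585 UMIs, a ratio of -0.77 (-0.86 to -0.68), and its difference parted by cluster. It had 3.60 against 3.74 in C1, but 6.79 against 4.04 in C10, 0.581 against 0.242 in C2 and 0.367 against 0.0619 in Aire+ mTEC-like cells.

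Both genes of retinoic acid breakdown were higher in the 5070-cell library. Cyp26a1 had 0.364 [0.347-0.381] against 0.469 [0.453-0.484], a log2 ratio of 0.37 (0.25 to 0.48), and 1.14 against 1.36 within Aire+ mTEC-like cells. Cyp26b1 had 0.89 (0.61 to 1.18), or 0.53 with clusters weighted alike in both libraries, and 0.335 against 0.488 within cTEC-like cells. The vitamin D and retinoic acid genes together had 0.440 and 0.582, a ratio of 0.40 (0.30 to 0.51). Those grouped under foreign compounds had 2.27 and 1.45, -0.64 (-0.69 to -0.59). Without Cyp2a5 and Cyp2f2, the other 39 genes of that group had 0.928 and 0.795, -0.22 (-0.30 to -0.15). Ranges of the steroid hormone genes, -0.12 (-0.30 to 0.05), and of Cyp11a1 alone, with 565 and 914 UMIs, 0.14 (-0.07 to 0.36), included 0, as did that of Cyp1a2, with 782 and 1233 UMIs, 0.11 (-0.08 to 0.29).

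Of the 42 genes with at least 100 UMIs, 7 were over 2-fold apart, all of them lower in the 5070-cell library, where 3.02% of all genes were over 2-fold apart in either direction. These were Cyp2c29 at -2.38, Cyp2b10 at -1.63, Cyp2f2 at -1.52, Cyp11b1 at -1.47, Cyp4f18 at -1.36, Cyp3a44 at -1.22 and Cyp2g1 at -1.05. Without the cell that held most UMIs of each gene, 4 of the 7 remained past 2-fold, and Cyp3a44 had -0.08, Cyp11b1 -0.78 and Cyp2g1 -0.98. Cyp2c29, an epoxygenase of the liver, then had -1.56; over all its cells, 94 UMIs in 13 cells stood against 26 in 9. By the share of cells with a UMI, only Cyp2c29 passed 2-fold, at -1.16. Among 1657 genes as concentrated as most of these (at least 90% of UMIs in 1% of cells), 21.5% were over 2-fold apart. They included 16 members, 5 of which passed.

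Of the same 42 genes, ranges that excluded 0 were found for 15 lower in the 5070-cell library, where 25.2% of all genes were, and for 5 higher, where 13.7% of all genes were. Beside Cyp26b1 and Cyp26a1 the higher ones were Cyp20a1 at 0.18 (0.01 to 0.35), Cyp2d10 at 0.95 (0.13 to 1.84), a liver enzyme with 30 and 86 UMIs in 13 and 18 cells, and Cyp4f14 at 0.43 (0.02 to 0.85). By the share of cells with a UMI, Cyp2d10 went the other way at -0.19, and without its highest cell Cyp4f14 had 0.23. Cyp2g1, in tuft-like cells and C10, had -1.05 over all cells and -0.43 with clusters weighted alike in both libraries. Tuft-like cells were 4.64% of the 3233-cell and 2.90% of the 5070-cell library.

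**Figure D4:**
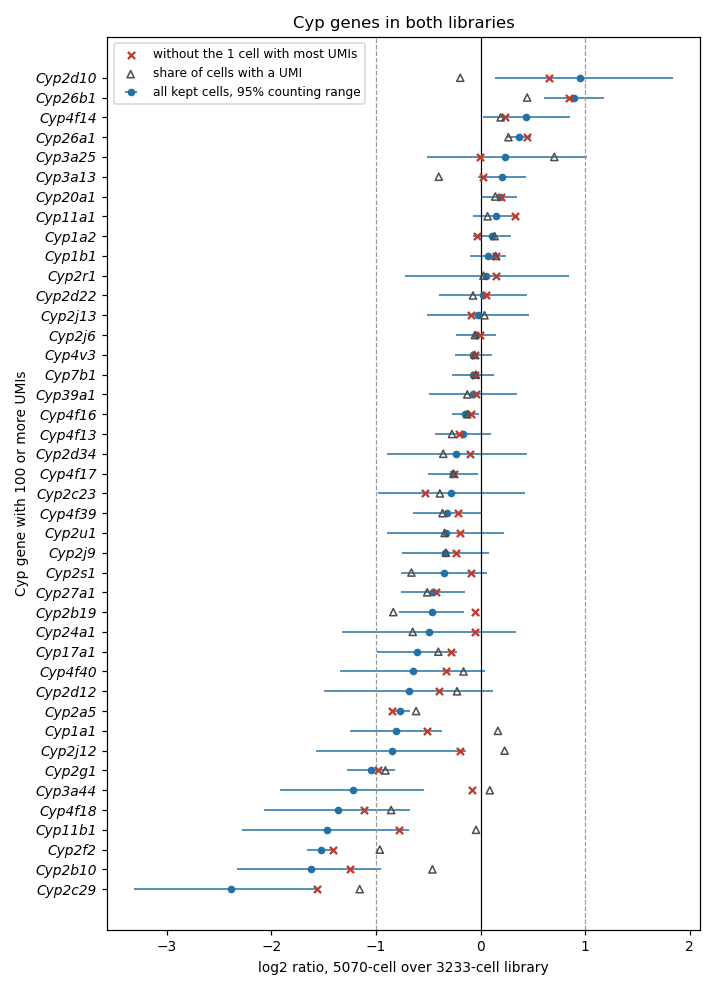
Log2 ratio of levels in the 5070-cell over the 3233-cell library (x axis) for each of the 42 Cyp genes with at least 100 UMIs (rows); points with bars give all kept cells and the counting range, crosses leave out the highest cell of each gene, triangles compare shares of cells with a UMI, and dashed lines mark 2-fold. Cyp2c29 lies furthest left at -2.38, and Cyp3a44 moves from -1.22 to -0.08 without its highest cell.

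Because many Cyp genes stand in rows of copies, it was asked whether neighbours were found in the same cells. In C2, pairs of members with starts within 1 Mb were found together 506 times over 155 pairs, against 287.9 from the product of their shares, a ratio of 1.76. For 2546 pairs farther apart the counts were 5220 and 4686, a ratio of 1.11. In C1 the ratios were 1.45 and 1.15, and in Aire+ mTEC-like cells 1.21 and 1.09. In the row of 12 Cyp2c genes (chr19:39007019-40187333), 47 joint detections stood against 6.68, and in the 7 Cyp2d genes (chr15:82370527-82794294) 34 against 9.30. In the 7 Cyp4f genes (chr17:32452723-32947402) there were 260 against 199.3. Of the 155 pairs, 47 were in no cell together, with at most 1.63 cells expected, for Cyp2g1 with Cyp2b10. Cyp4f16 with Cyp4f13 had 45 joint cells against 47.5.

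Reads that match several genes equally were not counted, and near-identical copies may still exchange reads. In the last 500 bases, 46 members shared no 50-base word with another gene and 33 shared some. Cyp2c40 shared 74.3% of its words, and Cyp2c67 and Cyp2c68 51.2% each, so that the levels of these 3 are uncertain. Levels of other members with shared words may be so too. In all, 19 members shared at least 10% of their words, among them Cyp2a4 with 44.3% and Cyp3a44 with 35.3%. For the 31 neighbouring pairs in C2 in which neither gene shared a word, the ratio was 2.37, and for the other 124 pairs 1.65. Where copies share sequence, shared reads and joint expression cannot be told apart.

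Cyp1a1 and Cyp1a2, with annotated gene starts 4225 bases apart on opposite strands, showed it most plainly. The RefSeq start matched to Cyp1a1 lay 9685 bases from its annotated gene start, so the distance depends on the start used. Of 19 C2 cells with Cyp1a1, 11 or 57.9% [33.5-79.7] had Cyp1a2, against 56 of 893 others, or 6.27% [4.77-8.07]. Thinned, the shares were 52.6% and 4.37%, and median depths of 15875 and 15843 UMIs were alike. Cyp2a5 was found in 44.4% [29.6-60.0] of C2 cells with Cyp2g1, its neighbour in the olfactory pair, and in 13.7% [11.5-16.2] of those without. Cyp2c37 was found in 6 of 15 cells with Cyp2c54 and in 1.78% of the others. Cyp2c54 shares 20.6% of its end words with Cyp2c37, so shared reads and joint expression cannot be told apart for this pair. Not every such pair followed: Cyp2b19 was in 2 of 33 cells with Cyp2b10, or 6.06% [0.743-20.2], and in 4.44% of those without. The pairs in this paragraph were picked from the 155 in C2 after their values were seen.

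Other enzymes and partners of steroid synthesis were set against Cyp11a1 in C2 in the same way. Of 89 cells with Cyp11a1, 5 or 5.62% [1.85-12.6] had Cyp17a1, against 5.95% [4.44-7.80] of the 823 others. Cyp11b1 and Cyp21a1 were each found in 1 of the 89. Star, which carries cholesterol into mitochondria, was found in 10.1% and 8.87%, and Hsd3b1, the next enzyme of the pathway, in 0 of 89, which allows a share of up to 3.37%, and in 2.19% of the others. No cell of the 89 and 7 of the others had Nr5a1, the regulator of these genes in the adrenal gland. Fdx1, the ferredoxin that passes electrons to Cyp11a1, was found in 73.0% [62.6-81.9] of the cells with Cyp11a1 and in 57.2% [53.8-60.6] of the others. The cells with Cyp11a1 were deeper, with a median of 18689 UMIs against 15665, and after thinning the shares of Fdx1 were 25.8% and 22.1%. Thinned shares of Cyp17a1 were 5.62% and 2.92%, the first from at most the same 5 cells. Star had 6.74% and 5.47%, and Hsd3b1 stayed at 0 of 89 against 1.58%.

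**Figure D5:**
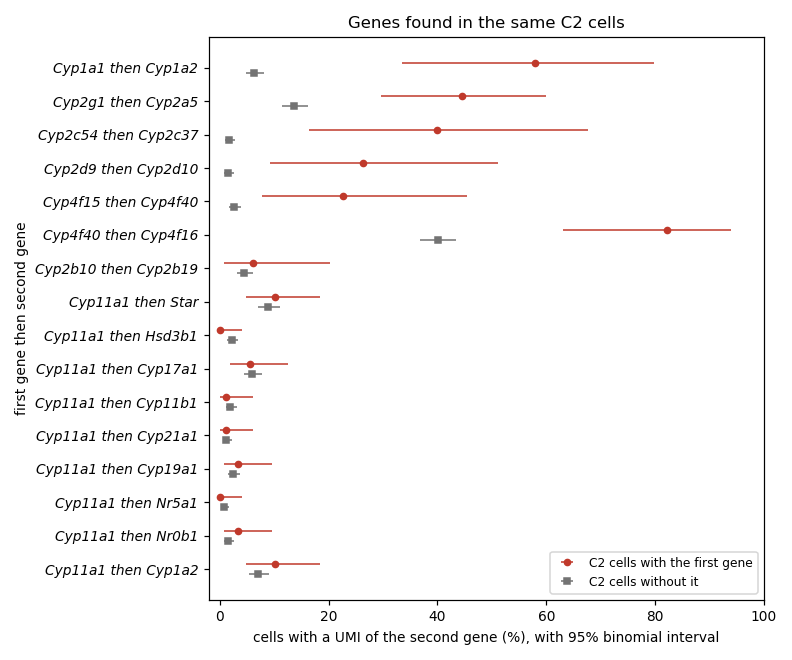
Share of C2 cells with a UMI of the second gene (x axis, %) among cells with (red) and without (grey) the first gene, with exact 95% binomial intervals, for neighbouring Cyp pairs (upper rows) and for Cyp11a1 with genes of steroid synthesis and Cyp1a2 (lower rows). The upper pairs were picked from 155 after their values were seen, and 47 of the 155 had no cell with both genes. Those drawn part, with 57.9% against 6.27% for Cyp1a2, except Cyp2b10 with Cyp2b19. In the Cyp2c54 and Cyp2d9 pairs both genes share end words with other genes, so shared reads and joint expression cannot be told apart there. The shares are before thinning, and the intervals of every Cyp11a1 row drawn overlap. Fdx1 and Fdxr were not drawn. The intervals of Fdx1 did not overlap before thinning, at 73.0% [62.6-81.9] against 57.2% [53.8-60.6].

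The partners and regulators of the P450 enzymes were read from fixed lists. All 7 redox partners had at least 100 UMIs, and none was over 2-fold apart by Aire or between the libraries. Por itself had 0.394 in C10, 0.0906 in Aire+ mTEC-like cells, 0.206 in cTEC-like cells and 0.159 in C2. The cluster highest in Cyp1a2, C2, was thus not that highest in Por. Fdx1, the partner of Cyp11a1, had 0.698 in C2, 0.665 in Aire+ mTEC-like cells and 0.944 in cTEC-like cells. Of 13 regulators of P450 genes, 11 had at least 100 UMIs. Among those over 2-fold higher in Aire-high cells were Nr1i3 (3.75), Nr1h4 (2.88) and Hnf4a (2.14), known from liver, as log2 ratios. Ahr, Rxra, Ppara and Rora were over 2-fold lower. Of 7 steroid partners, 4 had 100 UMIs and all 4 were over 2-fold higher in Aire-high cells, where 21.7% of all genes were, Star at 3.15 and Hsd3b1 at 5.94 among them. Between the libraries, 1 of the 11 regulators, Nr1h4 (1.56), and 1 of the 4 steroid partners, Nr0b1 (-1.41), were over 2-fold apart, where 3.02% of all genes were. Nr1h4 rests on 188 UMIs in 48 cells and Nr0b1 on 203 UMIs in 34 cells. Of 17 factors of other tissues' lineages, 15 had 100 UMIs, of which 5 were over 2-fold higher in Aire-high cells and 2 lower, against 21.7% and 16.6% of all genes.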

How the data were processed

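TECs of both conditions were measured by droplet single-cell RNA-seq, 1 library each. The authors trimmed reads with Fastp, aligned them to mm10 and counted UMIs with Cell Ranger (5.1 in the submitters' processing notes, 5.0.1 in the matrix header), and they deposited raw counts per gene and barcode without normalization. The labels name chemistry v2 and the paper v3.

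Barcodes with over 2000 and under 7500 detected genes, counted over genes in at least 5 barcodes of the library, and under 15% mitochondrial UMIs were kept, 65.5% of 4937 and 70.7% of 7167. Scrublet in scanpy 1.11.5 called 1 and 4 doublets, too few to have worked, and none was removed. Clusters were made with Seurat 5.3.0 in R 4.3.3 (3000 variable genes, 2000 anchor genes, 20 components, resolution 0.5) without Cyp genes, and were named from marker lists read together with their leading genes, and the others are called by number. Log2 ratios used 0.5 added UMIs, and were counted over genes of at least 100 UMIs unless another limit is named. Neighbour pairs took genes with starts within 1 Mb, and shared ends were read from the GENCODE transcripts. The ratio computation was tested on simulated counts. Python 3.11.15, numpy 2.4.6, scipy 1.17.1, pandas 2.3.3 and matplotlib 3.10.9 were used.

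Named genes were the 20 members with most UMIs, the 5 autoantigen orthologues, the 5 highest and 5 lowest by each ratio, the member with most UMIs of each role and that with the highest fold in each cluster, and sparse or neighbouring members named to illustrate a count were chosen after their values were seen. Members and lists were chosen with earlier results of these data known.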

Additional observations from a re-analysis of the deposited data

Results flagged for a closer look

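Cyp genes were also present in the barcodes left out by the limits on detected genes and mitochondrial UMIs, which no comparison used. Their summed level was 3.03 [2.90-3.17] UMIs per 10000 over 1704 such barcodes of the 3233-cell library and 2.88 [2.76-3.02] over 2097 of the 5070-cell library, below the 4.36 and 3.55 of the kept cells. Cyp51, the lanosterol demethylase of cholesterol synthesis, has a symbol outside the pattern and had 0.402 UMIs per 10000 over the kept cells, 5106 UMIs in 2614 cells.

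The log2 ratio of Aire-high over Aire-zero cells had opposite signs in the libraries for 2 genes past 2-fold in each. Cyp2s1 had -1.33 in the 3233-cell and 1.21 in the 5070-cell library, and Cyp2c29 had -1.02 and 4.48. Cyp2c29 rests on 94 and 26 UMIs in 13 and 9 cells. The differences between the libraries were not tested.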

How the results depend on the processing

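Of 34 alternatives, 19 left a value within its counting range or a count within 1.5 times, 13 moved it, and 2 turned a direction. The alternatives without a highest cell, by share of cells, without C10, within C1 or C2, and for the summed Aire ratio in 1 library at a time were chosen after seeing the data.

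The summed Aire ratio of 0.30 was 0.46 without the 3 genes with most UMIs, 0.44 as a mean over cells, 0.034 in the 3233-cell library alone and 0.52 in the 5070-cell library alone, and turned to -0.31 within C2 and -1.04 within C1. With genes from 50 UMIs, 30 of 55 instead of 19 of 42 were over 2-fold higher in Aire-high cells, where 25% of all 18788 such genes were. The summed library ratio of -0.29 was -0.13 without the same 3 genes, -0.10 with clusters weighted alike in both libraries and -0.22 without C10. The 7 genes over 2-fold apart between the libraries became 4 without each gene's highest cell and 1 by share of cells. The highest level of any cluster, 17.3 in C10, was 9.72 in a cluster of 1165 cells at resolution 0.3, 16.6 at resolution 1.0 and 18.2 without the top 5% of Scrublet scores. The causes were not tested.

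No paired analysis was possible because each condition had 1 library. For the same reason no replicate could be left out. Depth limits the sparse members most: 37 of 79 had under 100 UMIs, and their ratios were not counted.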

Other observations

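In C1, a marker of enterocytes and one of microfold cells were set against a pair of Cyp genes, chosen after their values were seen. Hnf4g, a regulator of intestinal genes, was found in 96 of 191 C1 cells with Cyp3a13, or 50.3% [43.0-57.6], and in 23.3% [20.3-26.5] of the 746 without, and after thinning in 17.3% and 8.18%. Sox8, a regulator of microfold cells, was found in 76 of 317 C1 cells with Cyp2a5, or 24.0% [19.4-29.1], and in 6.61% [4.79-8.86] of the 620 without, and after thinning in 13.6% and 2.58%. In the crossed pairs, Hnf4g was found in 34.4% [29.2-39.9] of C1 cells with Cyp2a5 and 26.0% [22.6-29.6] of those without, and Sox8 in 8.38% [4.86-13.2] of those with Cyp3a13 and 13.5% [11.2-16.2] of those without. Cyp2a5 itself was found in 43.5% [36.3-50.8] of the cells with Cyp3a13 and 31.4% [28.0-34.8] of the others. In C10, Cyp2f2 was found in 11 of 46 cells with Cyp2b19, or 23.9% [12.6-38.8], and in 41.8% [33.6-50.4] of the 141 without.

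Beyond the pattern of symbols, Cyp4a12a and Cyp4a12b, fatty acid hydroxylases of the kidney and liver, had 165 UMIs in 36 cells and 76 UMIs in 18 cells. Cyp3a41a had 4 UMIs, and Cyp3a41b and Cyp4a30b 1 each.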
